A study of Homo sapiens with 9 samples.

Results

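The KEAP1 and NRF2 system of TCam-2 cells was followed through 10 genes of the oxidative stress response, which were chosen by symbol: NFE2L2, KEAP1, SQSTM1, HMOX1, GCLM, GCLC, SLC7A11, NQO1, TXNRD1 and SRXN1. All 10 were found among the 63856 genes of the deposited tables, and all 10 were among the 18452 genes with enough counts for testing. HMOX1 and SRXN1 had fewer than 10 counts in at least 1 sample, so that 8 of the 10 reached that level in every sample. TCam-2 is a human testicular seminoma cell line, and total RNA of 9 samples was sequenced, 3 biological replicates in each of 3 groups. The wild type (WT) received no modification. The negative control (NC) was transfected with the px335_G2P vector, which also encodes GFP, carrying gRNAs nonspecific for the human genome. The third group, named ESX1, received px335_G2P vectors with gRNAs against the upstream region of the homeobox gene ESX1, together with PB-TRE-dCas9-VPR, a doxycycline-inducible dead Cas9 fused to transcriptional activators. Whether NC cells also received the dCas9-VPR plasmid is not given in the sources used here. Transfected cells underwent antibiotic selection and doxycycline induction, and only part of them carried GFP. In such bulk RNA, a higher level in every cell and a higher level in a larger share of the cells cannot be told apart. The study compared ESX1 with both controls. Comparing NC with WT in addition gives the difference that goes with everything the transfected control received, the parts of which cannot be told apart.

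NRF2, encoded by NFE2L2, is the transcription factor that drives genes of glutathione synthesis, thioredoxin reduction, quinone detoxification and haem breakdown by binding, together with a small MAF protein, to antioxidant response elements. KEAP1 holds NRF2 for ubiquitination by a CUL3 ligase, and oxidants or electrophiles that modify KEAP1 let NRF2 accumulate. The protein p62, encoded by SQSTM1, is a receptor of selective autophagy that can bind KEAP1 and take it away from NRF2, and SQSTM1 is itself an NRF2 target. NRF2 is controlled to a large part through protein stability, which RNA counts do not measure.

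The core of an antioxidant response element, TGACNNNGC, was searched on both strands of the 250 bases before each RefSeq transcription start (GRCh38.p14). The table used held 13 such promoters for 8 of the 10 genes, and promoters of HMOX1 and SLC7A11 were not analysed here. Promoters of 3 genes (GCLM, TXNRD1 and KEAP1) held a match, 4 promoters in all, and 10.9% of the 35116 RefSeq promoters searched did. The following 3 promoters are shown because the RNA of these genes is described below and because they differ in the motif. Capitals mark the match. In GCLM it reads GCTTAGTCA on the printed strand, with its first base 34 bases before the start. In the upstream promoter of TXNRD1 the match begins 99 bases before the start. None of the 3 SQSTM1 promoters held these letters, and the one whose start is nearest to the listed start of the gene is printed.
GCLM, chr1:93909431-93909680, minus strand: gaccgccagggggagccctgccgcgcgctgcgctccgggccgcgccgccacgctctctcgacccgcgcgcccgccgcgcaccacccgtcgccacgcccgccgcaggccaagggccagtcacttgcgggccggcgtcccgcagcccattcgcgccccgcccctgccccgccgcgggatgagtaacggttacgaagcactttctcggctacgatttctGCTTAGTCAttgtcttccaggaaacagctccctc
TXNRD1, chr12:104215529-104215778, plus strand: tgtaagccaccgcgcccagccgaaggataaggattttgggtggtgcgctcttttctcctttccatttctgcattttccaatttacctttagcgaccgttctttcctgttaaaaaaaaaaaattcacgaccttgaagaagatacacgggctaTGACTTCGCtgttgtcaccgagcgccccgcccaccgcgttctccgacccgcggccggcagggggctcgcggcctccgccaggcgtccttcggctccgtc
SQSTM1, chr5:179806143-179806392, plus strand: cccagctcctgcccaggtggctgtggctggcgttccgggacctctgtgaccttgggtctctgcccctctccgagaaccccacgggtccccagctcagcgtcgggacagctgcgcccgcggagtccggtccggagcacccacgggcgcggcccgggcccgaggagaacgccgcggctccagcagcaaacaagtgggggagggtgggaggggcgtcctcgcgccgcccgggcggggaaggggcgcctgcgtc
A match describes the letters only and does not show that NRF2 was bound there. Bases farther than 250 from a start were not searched, so a missing match does not show that a gene lacks the element. Which of the 3 SQSTM1 starts these cells used was not examined.

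The deposited counts summed to between 5212804 (ESX1 replicate 3) and 10644408 per sample. ESX1, the activated gene, had 57.0, 55.7 and 31.4 normalized CPM in the ESX1 samples and between 2.89 and 4.08 in the 6 control samples. Normalized CPM are counts scaled to a common library total after edgeR's TMM method. All 10 TCam-2 identity markers had counts, and their summed level was 3795 to 4661 normalized CPM in WT, 2865 to 3073 in NC and 1608 to 1952 in ESX1. The 6 fibroblast markers summed to 5.22 to 19.98 in WT, 21.9 to 24.2 in NC and 16.3 to 34.7 in ESX1, and both that had enough counts for testing, COL1A1 and POSTN, were higher in NC than in WT (log2 fold changes 2.20 and 1.43). The 6 immune cell markers summed to 0.22 to 1.57 in WT, 0.51 to 1.24 in NC and 0.91 to 1.29 in ESX1, with CD3E and LYZ at 0 counts in all samples. Mitochondrial genes took 17.0 to 18.3% of the counts in WT, 14.5 to 15.3% in NC and 19.2 to 19.9% in ESX1. The part of the marker levels and of the mitochondrial share in the results below was not tested. A library stood apart in the interferon response. The 15 genes of that list summed to 102 to 124 in WT and to 811 to 837 in NC. In the ESX1 samples they summed to 134, 821 and 140. ESX1 replicate 2 was thus at the NC level and the other two just above the WT range, while ESX1 itself was high in all 3. Without ESX1 replicate 2 each of the 10 genes kept its calls and the direction of its log2 fold changes in all 3 comparisons, and values without it are given beside the results.

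**Figure D1:**
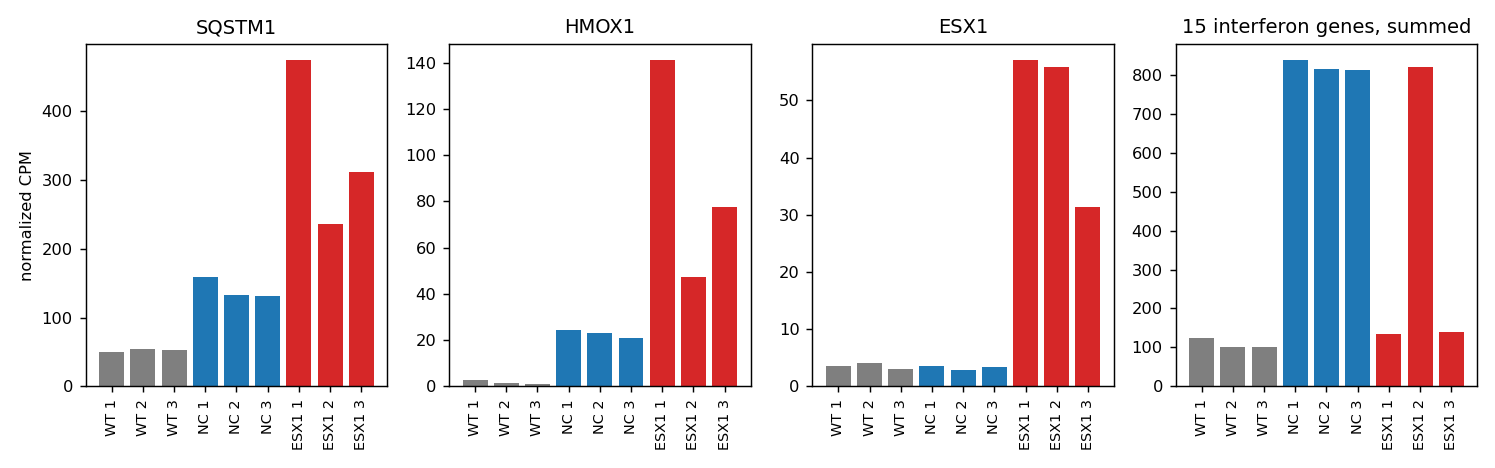
Normalized CPM of SQSTM1, HMOX1 and ESX1 and the summed normalized CPM of 15 interferon response genes, with 1 bar for each of the 9 samples (grey WT, blue NC, red ESX1). ESX1 replicate 2 had an interferon sum of 821, like the 3 NC samples, and the lowest SQSTM1 and HMOX1 levels among the ESX1 samples.

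Of the 10 genes, SQSTM1 and HMOX1 rose at both steps: NC had 2.68-fold and 13.8-fold the WT level, and ESX1 had 2.41-fold and 3.89-fold the NC level. GCLM and SLC7A11 were 2.12-fold and 1.99-fold higher in NC than in WT, and their further differences between ESX1 and NC did not pass the test. GCLC, NQO1 and TXNRD1 were 1.49 to 1.55 times higher in ESX1 than in NC, and did not pass between NC and WT. NFE2L2 and KEAP1 passed only in the comparison of ESX1 with WT, and SRXN1 passed in none of the 3. No gene of the set was lower past the test in any comparison, a count that is set beside the share of all genes below.

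Counted over the set, 5 of the 10 genes were higher in ESX1 than in NC at an adjusted p below 0.05, and 1.88% of all tested genes were. The count was 3 without NC replicate 1 or ESX1 replicate 1 and 2 without NC replicate 2 or NC replicate 3. The background of these fits is not given here, so the lower counts are no result about the set. With a change of at least 2-fold in addition, 2 of the 10 passed (background 1.08%). Against WT, 9 of the 10 genes were higher (background 12.9%), 4 of them at least 2-fold (background 6.78%). Between NC and WT, 4 of the 10 were higher in NC (background 6.82%), 3 of them at least 2-fold (background 3.12%). Higher against both controls were 5 of the 10 (background 1.59%). Lower past edgeR's test were 0 of the 10 in each comparison, while 2.37% of all tested genes were lower in ESX1 than in NC, 15.8% lower in ESX1 than in WT and 10.3% lower in NC than in WT. At an unadjusted p below 0.05, 0 of the 10 were lower too, beside 8.56%, 21% and 17% of all genes in the same 3 comparisons. The adjusted p of DESeq2 likewise gave 0 lower, beside 2.86%, 15.2% and 10.6%. With only 10 genes, a count of 0 lower does not set them apart from these shares. The median log2 fold change of the 10 genes was 0.50 against NC, 0.76 against WT and 0.29 between NC and WT, beside 0.00, 0.01 and 0.01 over all genes tested. For 7 of the 10 genes all ESX1 samples were above all NC samples (10.7% of all tested genes), for 8 they were above all WT samples (18.9%), and for 5 all NC samples were above all WT samples (17.6%). The 3 comparisons share their samples, so these counts are not independent of each other. The 10 genes were chosen with earlier results of these data known, and the study itself lists SQSTM1 as upregulated. The shares beside the counts therefore describe the set and do not test it.

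NFE2L2 (ENSG00000116044.15, chromosome 2 of GRCh38 from 177227595 to 177392697, minus strand) encodes NRF2 itself. Its normalized CPM were 63.4, 45.04 and 46.7 in WT, 60.6, 68.9 and 62.9 in NC and 91.9, 83.9 and 72.8 in ESX1. Every ESX1 sample exceeded every control sample, while WT and NC overlapped through WT replicate 1. Between WT and ESX1, NFE2L2 rose by 0.68 on the log2 scale (standard error 0.140, adjusted p = 0.0015). This and every other adjusted p comes from edgeR's quasi-likelihood test, adjusted after Benjamini and Hochberg over the 18452 genes. The log2 difference was 0.37 between ESX1 and NC (95% interval 0.08 to 0.66, adjusted p = 0.164) and 0.31 between NC and WT (0.01 to 0.60, adjusted p = 0.142). The NC value passed when WT replicate 1 was left out (0.48, adjusted p = 0.0205). Of the exon bases of NFE2L2, 20.91% lie in exons of other listed genes.

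KEAP1 (ENSG00000079999.13, chromosome 19 from 10486120 to 10503741, minus strand) encodes the sensor that restrains NRF2. It had 23.6, 15.5 and 16.3 normalized CPM in WT, 26.7, 18.5 and 22.1 in NC and 36.0, 27.7 and 23.3 in ESX1. The 3 groups overlapped, since ESX1 replicate 3 lay below NC replicate 1. KEAP1 was higher in ESX1 than in WT by 0.66 on the log2 scale (standard error 0.206, adjusted p = 0.0237), and the differences of 0.38 against NC (adjusted p = 0.394) and of 0.28 between NC and WT (adjusted p = 0.379) did not pass. The call against WT was lost when ESX1 replicate 1 (0.46, adjusted p = 0.125), WT replicate 2 (adjusted p = 0.108) or WT replicate 3 (adjusted p = 0.0881) was left out.

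SQSTM1 (ENSG00000161011.19, chromosome 5 from 179806398 to 179838078, plus strand) had raw counts of 457, 375 and 507 in WT, 1534, 1237 and 1285 in NC and 4665, 2335 and 1680 in ESX1. Scaled, these were 49.9, 54.7 and 53.0 normalized CPM in WT, 159, 133 and 131 in NC and 473, 235 and 310 in ESX1. The groups did not overlap, and WT was the most even, with 52.5 ± 2.42 (SD, n = 3) against 141 ± 15.8 in NC and 339 ± 122 in ESX1. The log2 fold change was 1.42 between NC and WT (standard error 0.187, adjusted p = 9.96e-05), 1.27 between ESX1 and NC (standard error 0.183, adjusted p = 0.000508) and 2.69 between ESX1 and WT (standard error 0.194, adjusted p = 5.31e-08). Leaving out ESX1 replicate 1, the highest sample, took the value against NC to 0.95, below a 2-fold change and still past the test (adjusted p = 0.000474). Without ESX1 replicate 2 it was 1.48 (adjusted p = 1.62e-05), and 2.90 against WT.

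SQSTM1 shares 22.04% of its exon bases with 2 genes of the opposite strand, and counts were made without the strand. MRNIP accounts for 20.67% and MGAT4B for 1.37%. MRNIP itself had log2 fold changes of 1.13 against WT in ESX1 (adjusted p = 0.000236) and of 0.73 between NC and WT (adjusted p = 0.0126), and of 0.41 between ESX1 and NC (adjusted p = 0.265). Its counts, between 74 and 261 per sample, were below those of SQSTM1 in every sample. Reads in the shared bases cannot be assigned to either gene.

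HMOX1 (ENSG00000100292.16, chromosome 22 from 35380361 to 35394214, plus strand) encodes haem oxygenase 1, which breaks haem down to biliverdin, iron and carbon monoxide. It had 24, 9 and 9 counts in WT, 235, 216 and 206 in NC and 1391, 471 and 421 in ESX1. In normalized CPM these were 2.62, 1.31 and 0.94 in WT, 24.4, 23.2 and 21.0 in NC and 141, 47.4 and 77.8 in ESX1. The 3 groups stood apart without overlap, and the NC samples lay close together while the ESX1 samples were spread widely, with replicate 1 highest. HMOX1 had the largest log2 fold changes of the 10 genes in each comparison, with 3.79 between NC and WT (95% interval 2.94 to 4.64, adjusted p = 1.65e-05), 1.96 between ESX1 and NC (1.35 to 2.57, adjusted p = 0.000592) and 5.75 between ESX1 and WT (4.92 to 6.58, adjusted p = 2.69e-08). The WT level rests on few counts, so the folds against WT are less precise than those against NC. Without ESX1 replicate 1 the value against NC was 1.44 (adjusted p = 0.00114), and without ESX1 replicate 2 it was 2.27 (adjusted p = 1.09e-05). None of its exon bases lie in exons of another listed gene.

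GCLM and GCLC encode the modifier and the catalytic subunit of glutamate cysteine ligase, the first enzyme of glutathione synthesis. GCLM (ENSG00000023909.9, chromosome 1 from 93885205 to 93909456, minus strand) had 21.0, 20.3 and 12.5 normalized CPM in WT, 30.7, 43.1 and 39.9 in NC and 58.1, 42.8 and 52.8 in ESX1. All NC samples were above all WT samples, and ESX1 overlapped NC through ESX1 replicate 2. GCLM rose by 1.09 on the log2 scale between WT and NC (standard error 0.195, adjusted p = 0.00114) and by 1.52 between WT and ESX1 (standard error 0.196, adjusted p = 2.2e-05). Its difference of 0.43 between ESX1 and NC (95% interval 0.04 to 0.83) did not pass after adjustment (adjusted p = 0.248). It was 0.55 without ESX1 replicate 2 (adjusted p = 0.14).

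GCLC (ENSG00000001084.10, chromosome 6 from 53497341 to 53616970, minus strand) had 25.1, 30.6 and 22.1 normalized CPM in WT, 25.6, 24.1 and 27.5 in NC and 42.6, 40.3 and 36.2 in ESX1. The NC samples lay inside the range of WT, and all ESX1 samples lay above both controls. The catalytic subunit rose by 0.63 against NC (standard error 0.151, adjusted p = 0.0231) and by 0.62 against WT (standard error 0.152, adjusted p = 0.00536). Its log2 difference between NC and WT was -0.01 (95% interval -0.33 to 0.32), with a sign that changed with the scaling, and that interval does not overlap the 0.674 to 1.497 of GCLM in the same comparison. Leaving out ESX1 replicate 2 gave 0.62 against NC (adjusted p = 0.0432). The call against NC was lost when any NC replicate or ESX1 replicate 1 was left out, with adjusted p between 0.0688 and 0.126 and log2 values between 0.57 and 0.69.

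SLC7A11 (ENSG00000151012.13, chromosome 4 from 138164097 to 138242349, minus strand) encodes xCT, the cystine transporter that supplies cysteine for glutathione. It had 33.4, 32.8 and 39.5 normalized CPM in WT, 60.1, 77.2 and 73.7 in NC and 78.7, 90.8 and 77.6 in ESX1. NC and WT stood far apart, and the lowest ESX1 sample was just above the highest NC sample. The log2 fold change was 0.99 between NC and WT (standard error 0.132, adjusted p = 0.000102), 1.22 between ESX1 and WT (standard error 0.132, adjusted p = 3.39e-06) and 0.23 between ESX1 and NC (95% interval -0.04 to 0.50, adjusted p = 0.412). This was the only one of the 10 genes with its highest ESX1 value in replicate 2, and without that sample its difference from NC was 0.15 (adjusted p = 0.666). The antisense gene SLC7A11-AS1 shares 8.97% of the exon bases of SLC7A11 and had 16 to 76 counts per sample, with a log2 fold change of 1.36 between NC and WT (adjusted p = 0.00702).

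NQO1 (ENSG00000181019.12, chromosome 16 from 69706996 to 69726951, minus strand) encodes a quinone reductase that is widely used as a marker of NRF2 activity. It had 148, 137 and 111 normalized CPM in WT, 137, 129 and 124 in NC and 257, 183 and 157 in ESX1. The NC samples lay inside the range of WT, and all ESX1 samples lay above both controls, with replicate 1 well above the other two. NQO1 rose by 0.62 on the log2 scale against NC (standard error 0.155, adjusted p = 0.0307) and by 0.60 against WT (standard error 0.155, adjusted p = 0.00821), and the difference of -0.02 between NC and WT (adjusted p = 0.945) changed sign with the scaling. Without ESX1 replicate 1 both calls were lost, with 0.39 against NC (adjusted p = 0.129) and 0.36 against WT (adjusted p = 0.0536). The call against NC was also lost without any of the NC replicates (adjusted p between 0.078 and 0.139). Without ESX1 replicate 2 the value against NC was 0.67 (adjusted p = 0.0267).

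TXNRD1 (ENSG00000198431.15, chromosome 12 from 104215779 to 104350305, plus strand) encodes the cytosolic reductase that keeps thioredoxin reduced. Its normalized CPM were 180, 185 and 141 in WT, 204, 196 and 205 in NC and 334, 276 and 291 in ESX1. The 3 groups did not overlap, with a small gap between WT and NC and a wider gap between NC and ESX1. TXNRD1 rose by 0.57 against NC (standard error 0.121, adjusted p = 0.0096) and by 0.83 against WT (standard error 0.122, adjusted p = 7.44e-05). Between NC and WT the log2 difference was 0.26 (95% interval 0.01 to 0.52, adjusted p = 0.152). The call against NC was lost without NC replicate 2 (0.55, adjusted p = 0.0708) or NC replicate 3 (0.60, adjusted p = 0.0527). It was 0.63 without ESX1 replicate 2 (adjusted p = 0.00711).

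SRXN1 (ENSG00000271303.1, chromosome 20 from 646615 to 653370, minus strand) encodes sulfiredoxin, which repairs overoxidized peroxiredoxins. It had 16, 11 and 26 counts in WT, 25, 16 and 15 in NC and 42, 15 and 2 in ESX1. The ESX1 samples alone spanned more than all control samples, from 0.37 to 4.26 normalized CPM. The log2 fold changes of 0.16 against NC (95% interval -0.99 to 1.31), 0.09 against WT (-1.07 to 1.25) and -0.07 between NC and WT (-1.23 to 1.09) had adjusted p of 0.937, 0.924 and 0.947, and each sign changed with a setting or a left-out library. A 2-fold rise lies inside all 3 intervals. Its exons share 84.95% of their bases with another listed gene on the same strand, and read pairs in these bases could not be assigned, so its level is uncertain.

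**Figure D2:**
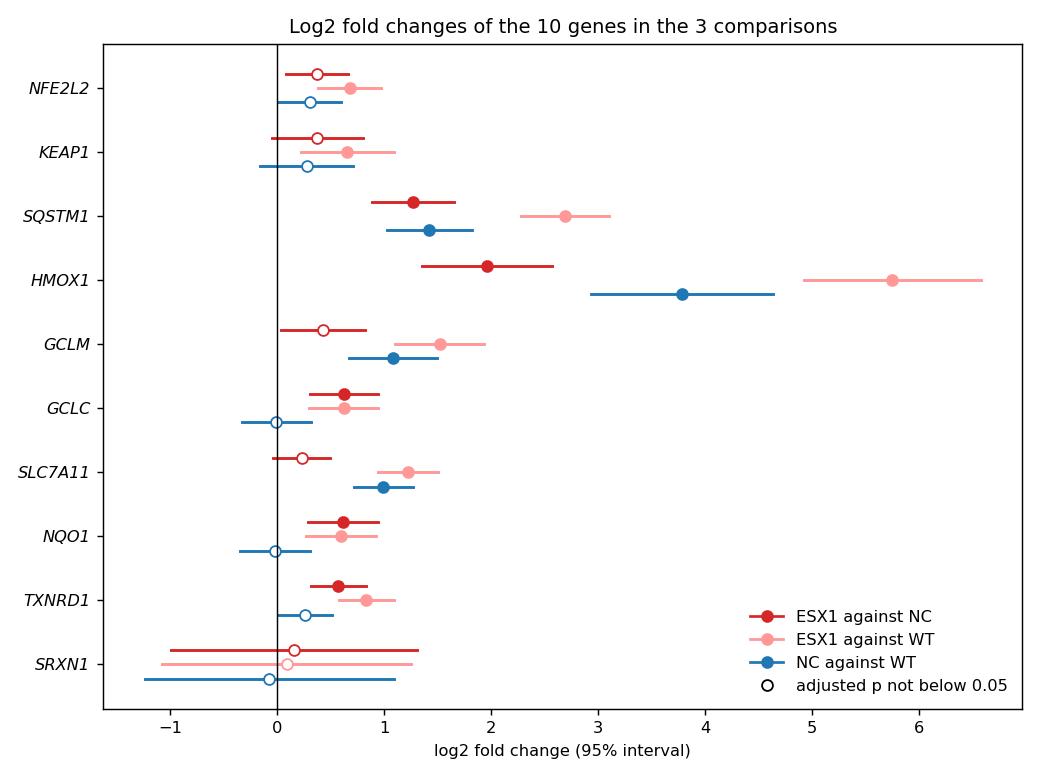
Log2 fold changes of the 10 genes (points) with 95% intervals (lines) from edgeR's quasi-likelihood fit, for ESX1 against NC (red), ESX1 against WT (light red) and NC against WT (blue). Filled points passed at an adjusted p below 0.05; SQSTM1 and HMOX1 are filled in all 3 comparisons and SRXN1 in none.

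Whether the 2 steps of a gene differed in size was tested in the same fit, as the log2 change from NC to ESX1 minus that from WT to NC. None of the 10 passed this test at an adjusted p below 0.05 (background 2.04% in either direction), and 4 had an unadjusted p below 0.05 (background 16.5%). HMOX1 had a difference of -1.83 (standard error 0.585, adjusted p = 0.119) and SLC7A11 of -0.77 (standard error 0.221, adjusted p = 0.0825). In the other direction were GCLC with 0.64 (standard error 0.266, adjusted p = 0.239) and NQO1 with 0.64 (standard error 0.272, adjusted p = 0.248). For SQSTM1 the difference was -0.15 (95% interval -0.82 to 0.51, adjusted p = 0.858).

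**Figure D3:**
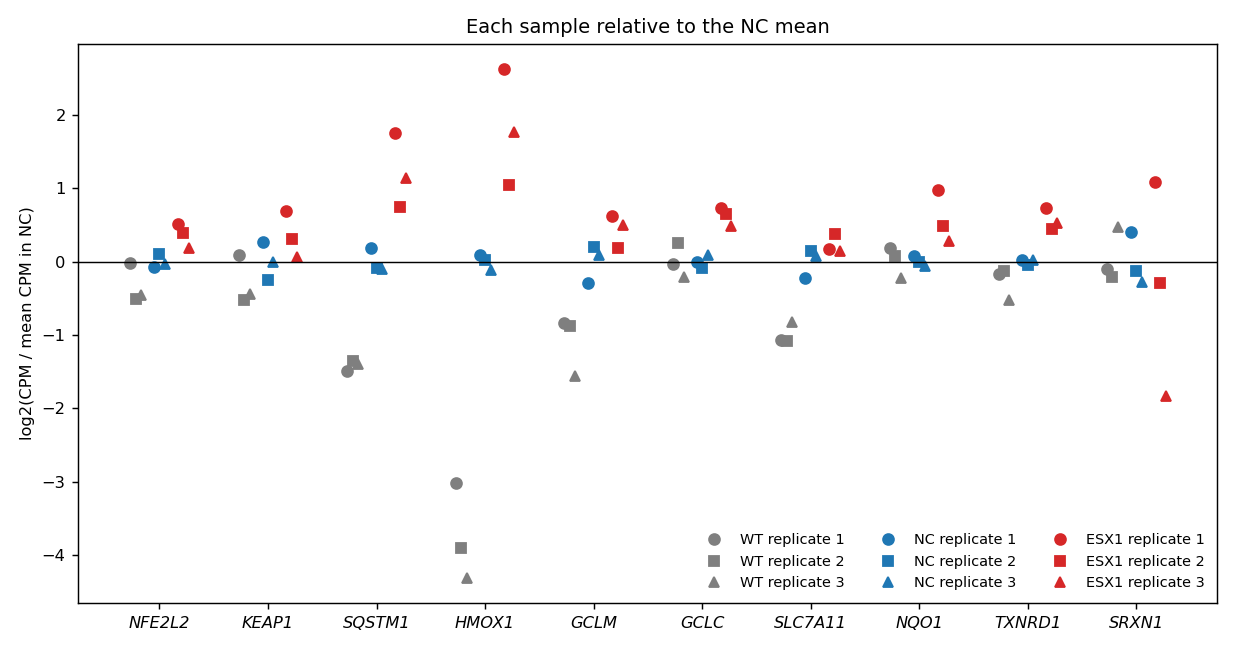
Log2 ratio of each sample's normalized CPM to the mean of NC, by gene, with colours for groups and symbols for replicates. ESX1 replicate 1 (red circles) is the highest ESX1 sample for 9 of the 10 genes, and the WT samples of HMOX1 lie between -3.02 and -4.30. The share of all tested genes highest in replicate 1 was not counted.

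The ESX1 replicates differed among themselves in the same order for several genes. Replicate 1 was the highest ESX1 sample for 9 of the 10 genes. The share of all tested genes with each order was not counted, so no order can be called particular to these genes. In SQSTM1, HMOX1, GCLM and TXNRD1, replicate 2 was the lowest and replicate 3 in between. In NFE2L2, KEAP1, NQO1, GCLC and SRXN1, replicate 2 was in between and replicate 3 the lowest. The activated gene ESX1 was at 57.0, 55.7 and 31.4 normalized CPM in replicates 1, 2 and 3, the order shared by these 5 of the 10 genes, and 4 of the 10 had replicate 3 above replicate 2. The interferon sum was 821 in replicate 2 and 134 and 140 in the others. The part of the interferon response in the levels of the 10 genes was not tested, and between NC and WT it cannot be told apart from transfection. Without ESX1 replicate 2, 5 of the 10 genes were higher than in NC (background 1.93%) and 9 higher than in WT (background 12.7%). Without ESX1 replicate 1 the numbers were 3 and 7, and the background of that fit is not given here. The lower numbers are thus no result about the 10 genes.

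Per kilobase of exon, the order of the 10 genes shifted with the group. In WT, NQO1 had the highest level with 40.6 ± 5.76 CPM per kilobase (SD, n = 3), followed by TXNRD1 with 25.1 ± 3.58. NFE2L2 (8.65 ± 1.70) and SQSTM1 (6.86 ± 0.315) followed, within the spread of NFE2L2 from each other. HMOX1 was last with 0.675 ± 0.367, not separable from SRXN1 (0.749 ± 0.224). The length includes bases shared with other listed genes, where reads could not be assigned. These are 84.95% of the exon bases of SRXN1 and 22.04% of those of SQSTM1. Levels of such genes may be too low, above all that of SRXN1, so its place in the order is uncertain. NC had SQSTM1 in the third place with 18.4 ± 2.06 and HMOX1 in the fifth with 9.49 ± 0.715, between NFE2L2 (10.7 ± 0.716) and SLC7A11 (7.29 ± 0.934). In ESX1, SQSTM1 with 44.3 ± 15.9 stood level with TXNRD1 (44.8 ± 4.47), and HMOX1 with 36.9 ± 19.9 did not differ from either beyond its spread. NQO1 also had the highest mean in the other two groups, with 40.0 ± 1.86 in NC and 61.2 ± 15.9 in ESX1. GCLM, SLC7A11 and KEAP1 lay between 7.71 and 9.45 CPM per kilobase in ESX1, and GCLC was at 4.69 ± 0.382.

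Other genes of the pathway were read from lists, whose counts stand beside the share of all tested genes that were higher or lower in the same comparison: 1.88% and 2.37% for ESX1 against NC, 12.9% and 15.8% for ESX1 against WT, and 6.82% and 10.3% for NC against WT. A share near these is no result about a list. The lists too were chosen with earlier results of these data known, so the shares are descriptions. Among 14 regulators of NRF2, such as the small MAF proteins, BACH1 and the subunits of the CUL3 ligase, 0 passed between ESX1 and NC. Against WT, 2 were higher and 1 lower in ESX1 (14.3% and 7.14%), and between NC and WT 0 were higher and 2 lower (14.3%). This list mixes genes that aid NRF2 with genes that restrain it, so its counts give no direction of NRF2 activity. Of 30 other NRF2 target genes, 28 were tested. In ESX1, 3 of them (10.7%, background 1.88%) were higher and 0 lower than in NC, and 8 were higher and 6 lower than in WT (28.6% and 21.4%, background 12.9% and 15.8%). Between NC and WT, 5 were higher and 4 lower (17.9% and 14.3%, background 6.82% and 10.3%). Higher and lower genes both stood above the background in these last 2 comparisons. The median log2 fold change of these targets was 0.22, 0.12 and -0.09 in the 3 comparisons. The lists were also read without ESX1 replicate 2, an alternative chosen after seeing the data. Then 5 of the 28 targets were higher (background 1.93%) and 0 lower than in NC (background 2.81%). Against WT, 9 were higher (background 12.7%) and 6 lower, and the background of lower genes is not given for that fit. Among the genes named from the lists, each kept its calls against NC and against WT, and OSGIN1 passed against NC in addition (1.42, adjusted p = 0.0451).

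FTL, the light chain of the iron store ferritin, had 282, 220 and 252 normalized CPM in WT, 626, 543 and 565 in NC and 1455, 950 and 1288 in ESX1. The 3 groups were separate, and the log2 fold change was 1.201 between NC and WT (standard error 0.138, adjusted p = 2.8e-05) and 1.09 between ESX1 and NC (standard error 0.137, adjusted p = 0.000138). GPX2, a glutathione peroxidase, had 62.4, 55.3 and 65.1 normalized CPM in NC and 116, 100.3 and 108 in ESX1. It rose by 0.83 against NC (adjusted p = 0.000392) and by 0.84 against WT (adjusted p = 4.21e-05), with a difference of 0.02 between NC and WT (adjusted p = 0.947). GSR, which reduces oxidized glutathione, rose by 0.69 against NC (adjusted p = 0.0159) and by 0.75 against WT (adjusted p = 0.00176). OSGIN1, known as a stress-induced growth inhibitor, had 1.53, 0.15 and 0.94 normalized CPM in WT and 5.597, 3.86 and 3.87 in NC, a log2 fold change of 2.25 between the groups (adjusted p = 0.00424). ME1, the cytosolic malic enzyme that makes NADPH, rose by 0.78 between WT and NC (adjusted p = 0.0484, and 0.0502 without ESX1 replicate 2). IDH1, another source of cytosolic NADPH, went the other way and fell by 1.18 on the log2 scale (adjusted p = 0.000116), from 270, 369 and 386 normalized CPM in WT to 153, 153 and 146 in NC.

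**Figure D4:**
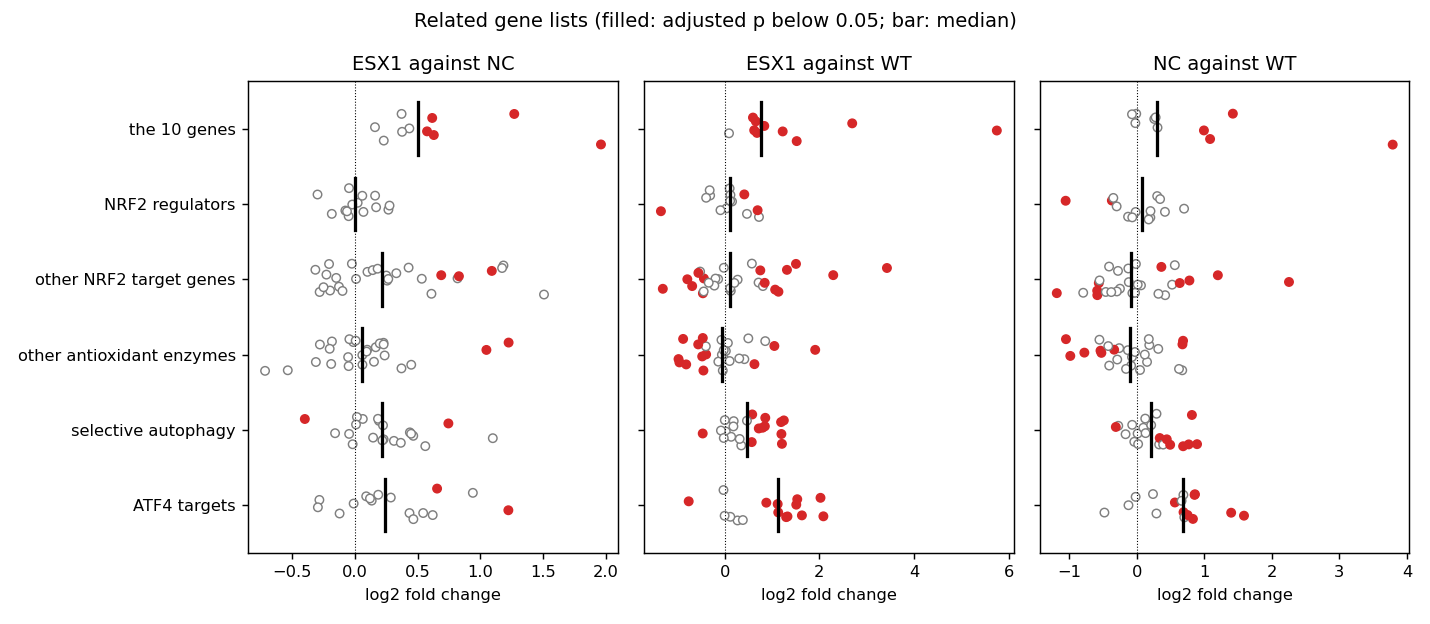
Log2 fold changes of the 10 genes and of 5 related lists in the 3 comparisons (1 point per gene, vertical jitter only for legibility). Red points passed at an adjusted p below 0.05 and black bars are medians; against NC the medians were 0.50 for the 10 genes and 0.00 to 0.24 for the lists.

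A further list held other antioxidant enzymes, which were not in the list of NRF2 targets above. Whether NRF2 drives them was not examined. Of 26 tested, 2 were higher and 0 lower in ESX1 than in NC (7.69%, background 1.88%). Against WT 3 were higher (background 12.9%) and 9 lower (34.6%, background 15.8%), and between NC and WT 2 were higher and 6 lower (7.69% and 23.1%, background 6.82% and 10.3%). The shares higher in these 2 comparisons were near the background. Naming required a pass in the same direction against both controls, so none of the 9 genes lower against WT is named. GLRX, a glutaredoxin, had 13.6, 12.3 and 13.2 normalized CPM in NC and 30.0, 26.7 and 35.3 in ESX1. It rose by 1.22 against NC (adjusted p = 0.000494) and by 1.91 against WT (adjusted p = 1.09e-06). SESN3, a sestrin, rose by 1.05 against NC (adjusted p = 0.002) and by 0.63 against WT (adjusted p = 0.0125).

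Genes of selective autophagy, in which p62 is a cargo receptor, were counted in the same way. Of 21 tested, 1 was higher and 1 lower in ESX1 than in NC (4.76% each, background 1.88% and 2.37%). Against WT 10 were higher and 1 lower (47.6% and 4.76%, background 12.9% and 15.8%), and between NC and WT 7 were higher and 1 lower (33.3% and 4.76%, background 6.82% and 10.3%). The medians were 0.22, 0.47 and 0.21. GABARAPL1, an ATG8 family protein to which p62 can bind, had 47.2, 47.9 and 43.6 normalized CPM in NC and 78.3, 65.4 and 89.4 in ESX1. It rose by 0.75 against NC (adjusted p = 0.00351) and by 1.19 against WT (adjusted p = 7.61e-06). KIF5B, a kinesin heavy chain, fell by 0.40 on the log2 scale against NC (adjusted p = 0.0443) and by 0.47 against WT (adjusted p = 0.00362).

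A list of ATF4 targets, which also holds ATF4 itself, was included because SLC7A11 is induced through ATF4 as well as through NRF2. Of 16 tested, 2 were higher and 0 lower in ESX1 than in NC (12.5% higher, background 1.88%). Without ESX1 replicate 2, 4 were higher than in NC (background 1.93%). Against WT 10 were higher and 1 lower (62.5% higher, background 12.9%), and between NC and WT 8 were higher and 0 lower (50.0% higher, background 6.82%). The medians were 0.24, 1.12 and 0.69. SLC3A2, the heavy chain that pairs with xCT in the membrane, had 131, 148 and 154 normalized CPM in WT, 285, 247 and 252 in NC and 435, 289 and 512 in ESX1. It rose by 0.66 against NC (adjusted p = 0.0229) and by 1.51 against WT (adjusted p = 2.85e-06), while the difference of xCT itself from NC did not pass. VLDLR, a lipoprotein receptor, rose by 1.22 against NC (adjusted p = 0.0117) and by 2.08 against WT (adjusted p = 3.45e-05). Of 13 interferon response genes tested, 0 passed between ESX1 and NC (median -1.40), 12 were higher in ESX1 than in WT (background 12.9%) and 13 higher in NC than in WT (background 6.82%, median 5.26). The ESX1 sums of 134, 821 and 140 were near the WT range in 2 of the 3 samples. Without ESX1 replicate 2, 12 of the 13 were lower in ESX1 than in NC (background 2.81%) and 6 were higher than in WT (background 12.7%).

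The tested genes whose log2 CPM followed SQSTM1 most closely over the 9 samples were FTL (Pearson r = 0.989), SMOX (0.984), CABP1 (0.982), BAG3 (0.981) and ZNF805 (0.979). The 9 samples share 3 groups with different means, so these values mostly describe the order of the groups. FTL was the only one of them in the list of NRF2 targets. BAG3, a co-chaperone of selective autophagy, had 24.0, 22.2 and 22.6 normalized CPM in WT, 51.2, 39.2 and 43.4 in NC and 90.3, 47.7 and 62.3 in ESX1, with the same order of the ESX1 replicates as SQSTM1. CABP1 lay at or below 1.52 normalized CPM in every sample. Within the set, HMOX1 was nearest to SQSTM1 (r = 0.974, the 11th of all tested genes), followed by TXNRD1 (0.930) and GCLM (0.907), and SRXN1 was farthest (-0.078).

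The 10 genes lie on 10 different autosomes. GCLM, TXNRD1, KEAP1 and HMOX1 share none of their exon bases with another listed gene. GCLC shares 6.33%, SLC7A11 8.97% and NQO1 17.67%, and the gene on the other strand of NQO1 had 0 counts in every sample. A listed pseudogene of SQSTM1 had 0 counts as well, against 14075 counts of SQSTM1 over all samples.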

How the data were processed

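RNA-seq of 9 TCam-2 samples was analysed, 3 biological replicates each of WT, NC and ESX1, grouped and numbered by the sample titles (the ESX1 columns of the count table carry other numbers). The authors prepared stranded, ribosomal RNA depleted libraries, used HISAT2 2.0.5 for the alignment to GRCh38.p7 and featureCounts for the counts per gene, which they deposited unnormalized. The file header names featureCounts 1.5.2 and GENCODE 26 and no strand option, while the submitters' processing notes name featureCounts 1.6.5. A second deposited table holds log2 values that the authors normalized with DESeq2. The transformation is not named, and a gene without counts has the value 4.18.

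Software was R 4.3.3 with the packages edgeR 4.0.16, DESeq2 1.42.0 and limma 3.58.1. The filterByExpr function kept 18452 of 63856 genes. Libraries were scaled with TMM, 3 group means were fitted over all 9 samples and compared by edgeR's quasi-likelihood test. The p-values were adjusted after Benjamini and Hochberg for the 18452 genes. A gene passed at an adjusted p below 0.05. A change of at least 2-fold, the study's threshold, was counted in addition. Standard errors were derived from the log2 fold change and its F statistic. CPM per kilobase used the listed exon length. Total counts ranged from 5212804 to 10644408. The p-values rest on an estimate of the spread between replicates that the 3 groups share for each gene, moderated over genes. A wide spread in ESX1 thus also enters the test of NC against WT.

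The members and the gene lists were chosen with earlier results of these data known. From each list, at most 4 genes were named, those with the largest change against NC among genes past the test in the same direction against both controls, and for NRF2 targets also the 4 with the largest change between NC and WT. The 5 genes most like SQSTM1 were taken by Pearson r of log2 CPM (prior count 2). The test of the difference between the 2 steps was added after the values were seen. Alternatives were RLE and upper-quartile factors, DESeq2, other filters on low counts, only the 6 samples compared, mitochondrial genes left out, limma on the authors' log2 values, stricter thresholds, a replicate block and leaving out each sample. Promoters are those of RefSeq on GRCh38.p14. Interferon and marker sums cover all listed genes, tested or not.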

Additional observations from a re-analysis of the deposited data

How the results depend on the processing

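Over all alternatives, 537 of the log2 fold changes of the 10 genes kept their direction and stayed passed or not passed. A further 26 had passed in the main fit and did not pass in the alternative, 1 newly passed and 30 changed sign. The alternatives include 2 stricter thresholds on the main fit, a 2-fold change and an adjusted p below 0.01. Under these a call can only be kept or lost. The adjusted p of SQSTM1 and HMOX1 stayed below 0.05 in every alternative that gave a value. The number of genes higher past the test was 5 against NC (background 1.88%), and 2 with a change of at least 2-fold (background 1.08%). It was 3 at an adjusted p below 0.01, and 2 to 5 with a sample left out. Against WT it was 9 (background 12.9%), 4 with a change of at least 2-fold (background 6.78%), and 7 to 9 with a sample left out. Between NC and WT it was 4 (background 6.82%), and 4 to 5 with a sample left out. The background at an adjusted p below 0.01 is not given here, nor that of most fits with a sample left out. Lower counts there are thus no result about the 10 genes. A minimum of 10 counts in every sample left HMOX1 and SRXN1 without a value.

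Sign changes concerned GCLC, NQO1 and SRXN1. For GCLC between NC and WT the log2 values were 0.08 with upper-quartile factors, 0.00 with DESeq2, 0.006 without the filter, 0.037 with at least 10 counts in every sample, 0.027 with only the 6 samples compared, 0.01 without mitochondrial genes, 0.005 with limma and 0.001 with the replicate block, and -0.11 to 0.12 with a sample left out. For NQO1 they were 0.065 with upper-quartile factors, 0.022 with at least 10 counts and 0.012 with only the 6 samples, and -0.133 to 0.066 with a sample left out. For SRXN1 they were 0.021 between NC and WT with upper-quartile factors, -0.093 against NC and -0.114 against WT with limma, and -0.12 against WT with the replicate block. With a sample left out SRXN1 ranged from -0.90 to 0.58 against NC, from -0.97 to 0.52 against WT and from -0.32 to 0.21 between NC and WT, the lowest values against NC and WT coming without ESX1 replicate 1. The cause was not tested. Upper-quartile factors moved the median of all genes against WT to 0.11.

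The replicate numbers are those of the titles, and the ESX1 columns carry other numbers. Deviations of same-numbered samples from their group means correlated by at most 0.193, and 5 of the 9 samples matched their own number best. This check does not settle whether same-numbered samples were handled together. With the replicate number as a block, 434 genes were higher and 618 lower against NC (346 and 438 without it), 2526 and 3218 against WT (2382 and 2924) and 1498 and 2222 between NC and WT (1259 and 1899), and the number of the 10 genes past the test was unchanged at 5, 9 and 4. Counts of SRXN1 and of HMOX1 in WT limit their precision.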
